A study of Solanum lycopersicum with 9 samples.

Results

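The leaf transcriptome of the tomato cultivar Diana (Solanum lycopersicum) after 2 days of 15 mM p-hydroxybenzoic acid (PHBA) was compared with that of untreated leaves of the same age. The members are the 6 libraries that the labels give to those 2 groups, 3 each, out of 9 libraries in the series. Plants were about a month old at treatment, and the groups were leaves treated with 15 mM PHBA and leaves left untreated (0 mM). The remaining 3 libraries, from leaves treated with 30 mM PHBA, entered the shared estimate of the spread and are otherwise printed beside the members as values. All groups share the cultivar, the tissue and the age, and no transgene or second agent is named. The labels say that equal parts of RNA from the same treatment were mixed, and none says that the 3 libraries of a group came from separate plants. All p-values below therefore measure the spread between libraries, which may be technical.

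PHBA is a simple phenolic acid that plants release from roots and decaying residues, and that builds up in soils where the same crop is grown repeatedly. Such compounds are called allelochemicals because they act on the growth of neighbouring or following plants. In general, plant cells meet foreign small molecules with enzymes that oxidise, conjugate and export them, while membrane and intracellular receptors, kinases and families of DNA-binding factors such as WRKY and NAC proteins carry stress signals to the nucleus. The leaf surface is guarded by a layer of cutin and wax, and the very long acyl chains of the waxes are built by the fatty acid elongase. The wall beneath that layer is loosened by expansins and xyloglucan-modifying enzymes.

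Expression was measured as FPKM, fragments per unit of sequence length and per unit of library size, for de novo assembled sequences. The prefix of a sequence name gives the library whose assembly it came from (TCK for untreated, T15 for 15 mM and T30 for 30 mM, with the replicate number). The annotation gives protein families and no tomato gene names, so sequences are called by identifier and family, and several may be pieces or near-identical copies of 1 gene between which reads were split. The file marks no position in a genome. The test took sequences that reached 0.5 FPKM in 3 or more of the 9 libraries, which left 44203 of 82125 sequences, 13634 of them annotated. Changes are given as log2 fold changes of FPKM + 1, 15 mM minus untreated, with their standard error (SE), from limma's two-sided moderated test, and "called" means a Benjamini-Hochberg adjusted p under 0.05 over all 44203 sequences.

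Summed FPKM was 353902 to 364475 in the 15 mM libraries and 349076 to 366748 in the untreated ones, and relative depth was 0.975 to 1.14 at 15 mM and 0.964 to 1.22 untreated. The 4 most abundant sequences took 34.3, 44.6 and 26.9% of the FPKM in 15 mM replicates 1, 2 and 3, against 45, 40.3 and 39.4% in the untreated libraries. On the first principal component (28.3% of the variance) the 15 mM libraries lay at -9.4, -34.3 and 0.4, and the untreated ones at -60.7, -58.9 and -44.5. Of the 15 mM libraries, replicate 2 therefore lay nearest to the untreated group. Leaf markers were abundant in both groups: the 24 sequences with a chlorophyll a-b binding domain summed to 4162 to 5679 FPKM at 15 mM and 4897 to 7559 FPKM untreated, and a RuBisCO small chain sequence (TCK_3_TRINITY_DN1438_c0_g3) had 75.7 to 119 FPKM at 15 mM and 89.7 to 141 FPKM untreated.

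Markers of other cells or organs were also present in both groups. The 31 laccase and fasciclin sequences, which include enzymes of lignifying cells, summed to 98.6 to 141 FPKM at 15 mM and 81.2 to 97 FPKM untreated, so that every 15 mM library was above every untreated one. Other lists showed this too, and the median log2 fold change here was 0.16, against 0.19 for annotated sequences. The 22 core histone sequences, high in dividing cells, summed to 203 to 292 FPKM at 15 mM and 206 to 221 FPKM untreated. The 16 sequences with the domain of Casparian strip proteins, which mark the root endodermis, summed to 43.6 to 67.8 FPKM at 15 mM and 45.6 to 52.3 FPKM untreated. The 27 sequences with pollen or floral regulator domains summed to 62.5 to 82.8 FPKM at 15 mM and 64.2 to 79.5 FPKM untreated. The 9 terpene synthases, abundant in glandular trichomes, summed to 4.82 to 6.67 FPKM at 15 mM and 5.38 to 7.17 FPKM untreated. In these 5 lists no member was listed at 0 in all 3 libraries of either group, and 0 members were called. Their part in the differences below was not tested, and in these bulk samples fewer cells of a type and less RNA per cell cannot be told apart.

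At 15 mM PHBA, 44 sequences were called, 0.0995% of those tested. Of these, 37 were higher than in untreated leaves (0.0837%) and 7 were lower (0.0158%). Among them, 10 of the higher and 6 of the lower were listed at 0 in both other groups. Those passed the filter only through the group in which they were high, so a difference was a condition of their being tested. Among the annotated sequences 18 were called higher (0.132%) and 0 lower, and limma gave an unadjusted p under 0.05 for 127 lower ones (0.931%) and 1937 higher ones (14.2%). Over all tested sequences 3957 were higher (8.95%) and 646 lower (1.46%) at that level. No fit of another tool was made. Lower annotated calls numbered 1 without 15 mM replicate 2 (0.00733%) and 14 with array weights (0.103%), and the lower annotated sequences given as values below include some that were called under another filter or scaling. Outside the annotation 26 sequences were called (0.0851%), 19 higher (0.0622%) and 7 lower (0.0229%). The total of 44 became 6, 5 and 11 without untreated replicate 1, 2 and 3, then 9, 135 and 6 with the 15 mM replicates left out in the same order, and 11 when 30 mM replicate 1 was dropped. Without 15 mM replicate 2, 127 were higher (0.287%) and 8 lower (0.0181%), and with array weights, which let limma count uneven libraries less, 714 were higher (1.62%) and 79 lower (0.179%). With the 6 libraries of the 2 groups alone in the fit the total was 14. Calls were more frequent among abundant sequences: 0.684% were called at a mean of 20 FPKM or more, 0.494% from 5 to 20 FPKM, 0.0754% from 1 to 5 FPKM and 0.0312% below 1 FPKM.

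The direction of small differences depended on the scale. All 3 libraries of 15 mM lay above all 3 untreated ones for 14.7% of the sequences (23.8% of the annotated ones) and below them for 2.37% (2.02% of the annotated ones). Most sequences named below were picked as called or by the smallest p. That their groups do not overlap follows largely from this choice and is no separate support. The median log2 fold change was 0.15 over all sequences and 0.19 over the annotated ones, and it was 0.00 and 0.02 after quantile normalization. The median difference of single 15 mM libraries from the untreated mean was 0.15 in replicate 1, 0.01 in replicate 2 and 0.26 in replicate 3. The called split of 37 higher and 7 lower became 54 and 22 after quantile normalization, while median-of-ratios rescaling gave 49 and 22. Values of lists and sequences below are therefore to be read against a shift of 0.15 to 0.19. The shift differed with abundance. At a mean of 5 to 20 FPKM its median was 0.27, with 24.6% of sequences higher at an unadjusted p under 0.05. From 1 to 5 FPKM these were 0.18 and 11.2%, and at 20 FPKM or more 0.21 and 18.6%. Shares of lists below are set against all annotated sequences and were not matched for abundance.

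**Figure D1:**
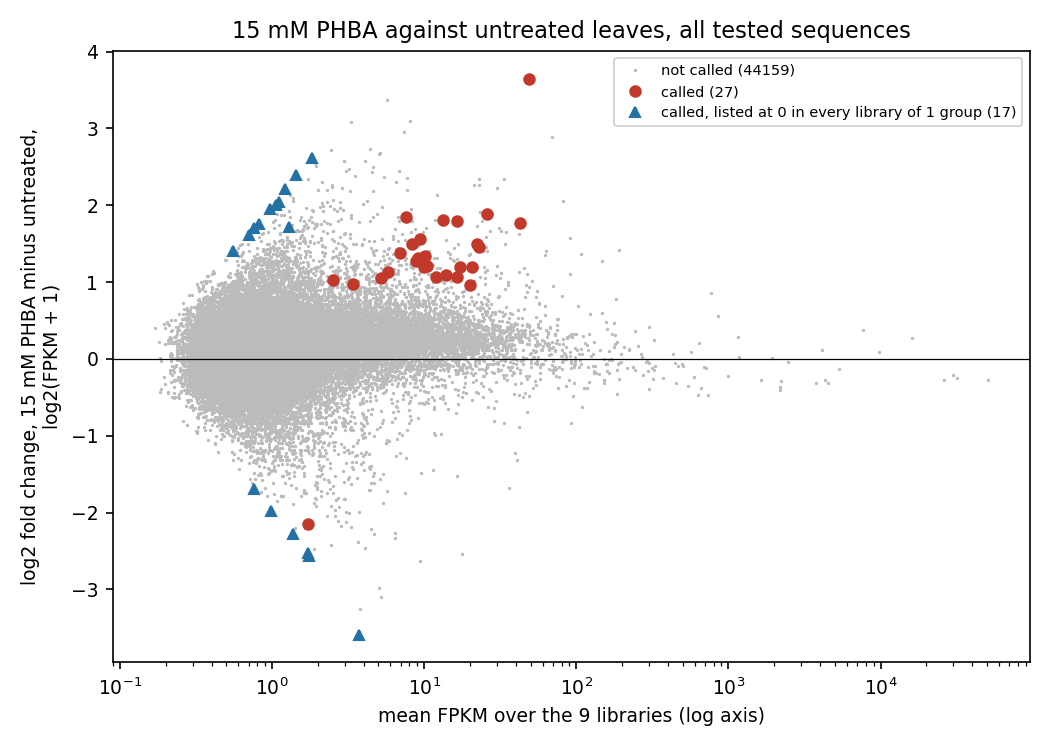
Log2 fold change (15 mM PHBA minus untreated, on log2 of FPKM + 1) against the mean FPKM of the 9 libraries (log axis) for every tested sequence. Red circles are the 27 called sequences with a value above 0 in both groups and blue triangles the 17 called sequences listed at 0 in every library of 1 group; the circles above 0 lie toward higher means than the triangles, all of which lie below a mean of 5 FPKM and whose fitted difference depends on the pseudocount.

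The 18 annotated sequences that rose had 1 trait in common: in all 18, replicate 2 was the lowest of the 15 mM libraries. It was also the lowest in 27 of the 37 sequences that rose and in 3885 of the 6507 whose groups did not overlap upward. Without that library all 18 stayed called, and the number of annotated sequences called higher was 77 (0.565%). The 18 calls were lost in full without untreated replicate 1 or 2 or 15 mM replicate 1 or 3, and 1, 2, 12 and 8 of them were kept without untreated replicate 3 and 30 mM replicates 1, 2 and 3. The adjusted p-values of each group without those libraries are given beside it below. None of the 18 was called with a pseudocount of 5, without a filter or with the 6 libraries of the 2 groups alone, and 13 were kept by quantile normalization, 10 by median-of-ratios rescaling and 15 when the 4 most abundant sequences were taken out.

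**Figure D2:**
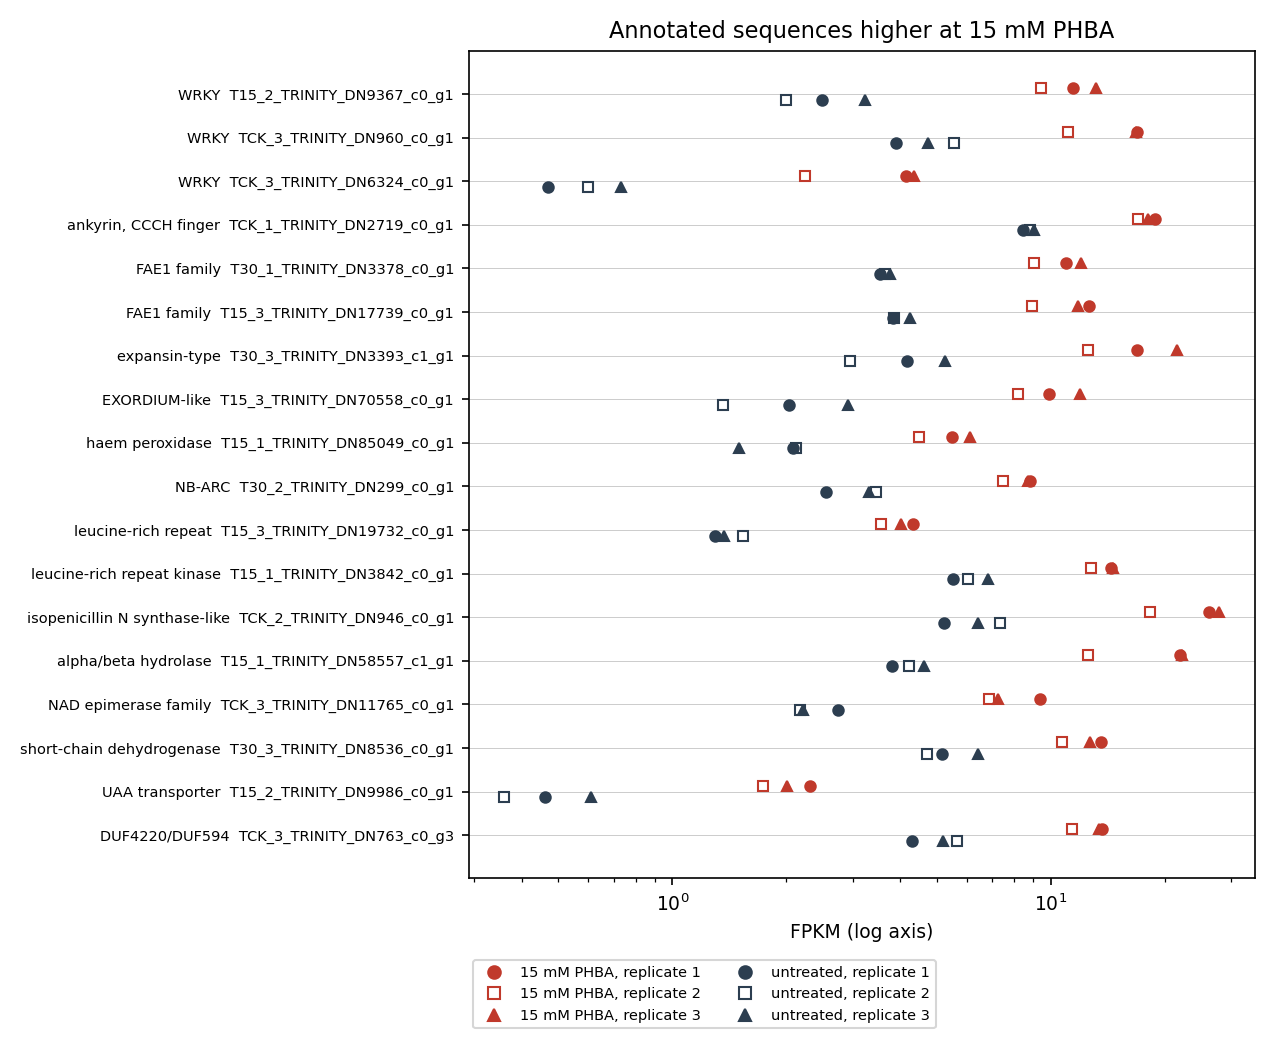
FPKM (log axis) of the 18 annotated sequences called higher at 15 mM PHBA, with 1 point for each library, red for 15 mM and dark blue for untreated. Every red point lies right of every dark blue point in its row, and the open red square, 15 mM replicate 2, is the leftmost red point in all 18 rows.

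Regulators of gene expression made up 4 of the 18 annotated sequences that rose. Of 40 tested sequences with a WRKY DNA-binding domain, a plant family of factors that bind W-box elements in defence and stress genes, 3 were called higher and 0 lower, against 0.132% of annotated sequences called higher. The WRKY sequence T15_2_TRINITY_DN9367_c0_g1 had 11.5, 9.4 and 13.2 FPKM in the 15 mM libraries, against 2.49, 2 and 3.22 FPKM in the untreated libraries, a log2 fold change of 1.79 ± 0.18 (SE; adjusted p = 0.0249). TCK_3_TRINITY_DN960_c0_g1 had 16.9, 11.1 and 16.8 FPKM at 15 mM and 3.9, 5.56 and 4.74 FPKM untreated (1.46 ± 0.18; adjusted p = 0.0322). In both, the lowest 15 mM library was above the highest untreated one. TCK_3_TRINITY_DN6324_c0_g1 had 4.15, 2.24 and 4.36 FPKM at 15 mM, against 0.47, 0.6 and 0.73 FPKM in untreated leaves, where it was near the filter (1.49 ± 0.20; adjusted p = 0.0488).

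The fourth regulator, TCK_1_TRINITY_DN2719_c0_g1, combines ankyrin repeats with CCCH zinc fingers, a form found in plant RNA-binding stress proteins. It had 18.8, 17 and 18.1 FPKM at 15 mM, against 8.43, 8.8 and 9.05 FPKM untreated (0.96 ± 0.11; adjusted p = 0.0269). Its libraries differed by less than 2 FPKM within each group, and the groups did not overlap, but it was not called after quantile normalization (adjusted p = 0.136), nor by median-of-ratios rescaling (0.165) or when the 4 most abundant sequences were taken out (0.0654). The calls of these 4 regulators were lost when any of untreated replicates 1 and 2 or 15 mM replicates 1 and 3 was left out (adjusted p = 0.0923 to 0.213). Those of the ankyrin sequence, TCK_3_TRINITY_DN960_c0_g1 and TCK_3_TRINITY_DN6324_c0_g1 were also lost without untreated replicate 3 (adjusted p = 0.0896 to 0.109) or 30 mM replicate 1 (0.0546 to 0.0744), and those of the last 2 WRKY sequences without 30 mM replicate 2 (0.0533 to 0.0777) or 3 (0.0706 to 0.0964).

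Across the WRKY family, 25 of 40 sequences were higher and 0 lower at an unadjusted p under 0.05, which is 62.5% against 14.2% of annotated sequences. The family's median log2 fold change was 0.47 (0.33 after quantile normalization), its members ranged from -0.16 to 1.79, and 38 of 40 were above 0. Summed FPKM of the family was 183, 147 and 194 at 15 mM, against 88, 92.4 and 104 untreated. Among the members that were not called, T15_1_TRINITY_DN11_c0_g1 had 11.8, 11.6 and 14.2 FPKM at 15 mM and 3.63, 4.8 and 4.49 FPKM untreated (1.35 ± 0.20; adjusted p = 0.0656). Its adjusted p was 0.0474 without 30 mM replicate 3 but 0.0666 without 15 mM replicate 2. Here and below, fits under 0.05 quoted for sequences not called were picked because they passed, and are no separate support. TCK_3_TRINITY_DN4137_c0_g1, which also carries a plant zinc cluster domain, had 6.05, 4.66 and 4.83 FPKM at 15 mM and 2.05, 1.66 and 2.63 FPKM untreated (0.99 ± 0.19; adjusted p = 0.117). The groups did not overlap in either.

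The NAC family, plant factors with a no apical meristem domain that act in development, senescence and stress, had 0 of 32 members called. At an unadjusted p under 0.05, 15 of 32 were higher and 0 lower (46.9%, against 14.2% of annotated sequences higher), and the groups did not overlap upward in 21 (65.6%, against 23.8%). The median was 0.37 (0.25 after quantile normalization). TCK_2_TRINITY_DN9048_c0_g1 had the largest fold of the family, with 16.9, 8.2 and 25.4 FPKM at 15 mM and 3.08, 1.54 and 2.21 FPKM untreated (2.34 ± 0.36; adjusted p = 0.067). Its 15 mM libraries were uneven, with replicate 2 lowest yet above every untreated library. Leaving that library out raised its fold to 2.76, with an adjusted p of 0.0198. In that fit 77 annotated sequences were called higher (0.565%). TCK_1_TRINITY_DN6147_c0_g1 had 8.96, 9.49 and 12.7 FPKM at 15 mM, against 3.31, 3.93 and 4.4 FPKM untreated (1.22 ± 0.20; adjusted p = 0.0816), and replicate 2 was not its lowest 15 mM library. Of the other regulator families, AP2/ERF, MYB-type, bHLH and bZIP factors had medians of 0.2, 0.17, 0.17 and 0.24, against 0.19 for annotated sequences, and of 0.04, -0.01, -0.01 and 0.07 after quantile normalization. At an unadjusted p under 0.05, 19.7, 12.5, 13.7 and 27.0% were higher, against 14.2% of annotated sequences. The lower shares were 0, 1.56, 2.74 and 0%, against 0.931%.

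The FAE1 family had the highest median of the 62 function lists with at least 5 tested members. Its name-giving Arabidopsis enzyme is a 3-ketoacyl-CoA synthase, the condensing enzyme of the elongase that makes very long chain fatty acids for waxes and seed oils. The family name is that of the Pfam column; the KEGG column gives 7 of the 10 sequences as the fatty acid elongase ELO3 and the other 3, both called members among them, as fabY, an acetoacetyl-ACP synthase, which in bacteria starts fatty acid chains. Of 10 tested sequences, 2 were called higher and 0 lower, against 0.132% of annotated sequences called higher. At an unadjusted p under 0.05, 8 were higher (80%, against 14.2% of annotated sequences). The median log2 fold change was 0.72 (0.53 after quantile normalization). Summed FPKM of the 10 was 117, 95.5 and 126 at 15 mM, against 58.6, 60.8 and 70 untreated. T30_1_TRINITY_DN3378_c0_g1 had 10.9, 9.04 and 12 FPKM at 15 mM, against 3.54, 3.65 and 3.75 FPKM untreated (1.32 ± 0.14; adjusted p = 0.0249). T15_3_TRINITY_DN17739_c0_g1 had 12.6, 8.9 and 11.8 FPKM at 15 mM, against 3.84, 3.86 and 4.25 FPKM untreated (1.27 ± 0.17; adjusted p = 0.0488). The untreated libraries of both lay within 1 FPKM of each other, and every 15 mM library was more than 4 FPKM above them.

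The most abundant member, TCK_2_TRINITY_DN7052_c0_g1, had 65.2, 52.6 and 70.3 FPKM at 15 mM and 35.3, 35.3 and 42 FPKM untreated (0.72 ± 0.14; adjusted p = 0.134). T30_1_TRINITY_DN4320_c0_g1 had 13.6, 13.6 and 14.6 FPKM at 15 mM and 9.65, 9.1 and 11 FPKM untreated (0.45 ± 0.12; adjusted p = 0.245). T15_1_TRINITY_DN3170_c0_g1 had 4.75, 2.74 and 6.72 FPKM at 15 mM and 0.91, 1.05 and 1.1 FPKM untreated, the largest fold of the family (1.45 ± 0.23; adjusted p = 0.0741). None of the 3 passed the test. Their groups did not overlap, which held upward for 23.8% of annotated sequences. The other 3 of the 8 were below 3 FPKM in every library of both groups, and 2 of them come from a single assembly component (T30_3_TRINITY_DN3843), so they may share a gene. The 2 remaining members, TCK_3_TRINITY_DN44899_c0_g1 and TCK_3_TRINITY_DN79419_c0_g1, had log2 fold changes of -0.13 and -0.07 with overlapping groups. The FAE1 calls were both lost without untreated replicate 1, 2 or 3 (adjusted p = 0.0703 to 0.209), 15 mM replicate 1 or 3 (0.101 to 0.213) or 30 mM replicate 1 (0.0519 to 0.0787), and that of T15_3_TRINITY_DN17739_c0_g1 also without 30 mM replicate 3 (0.0626).

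**Figure D3:**
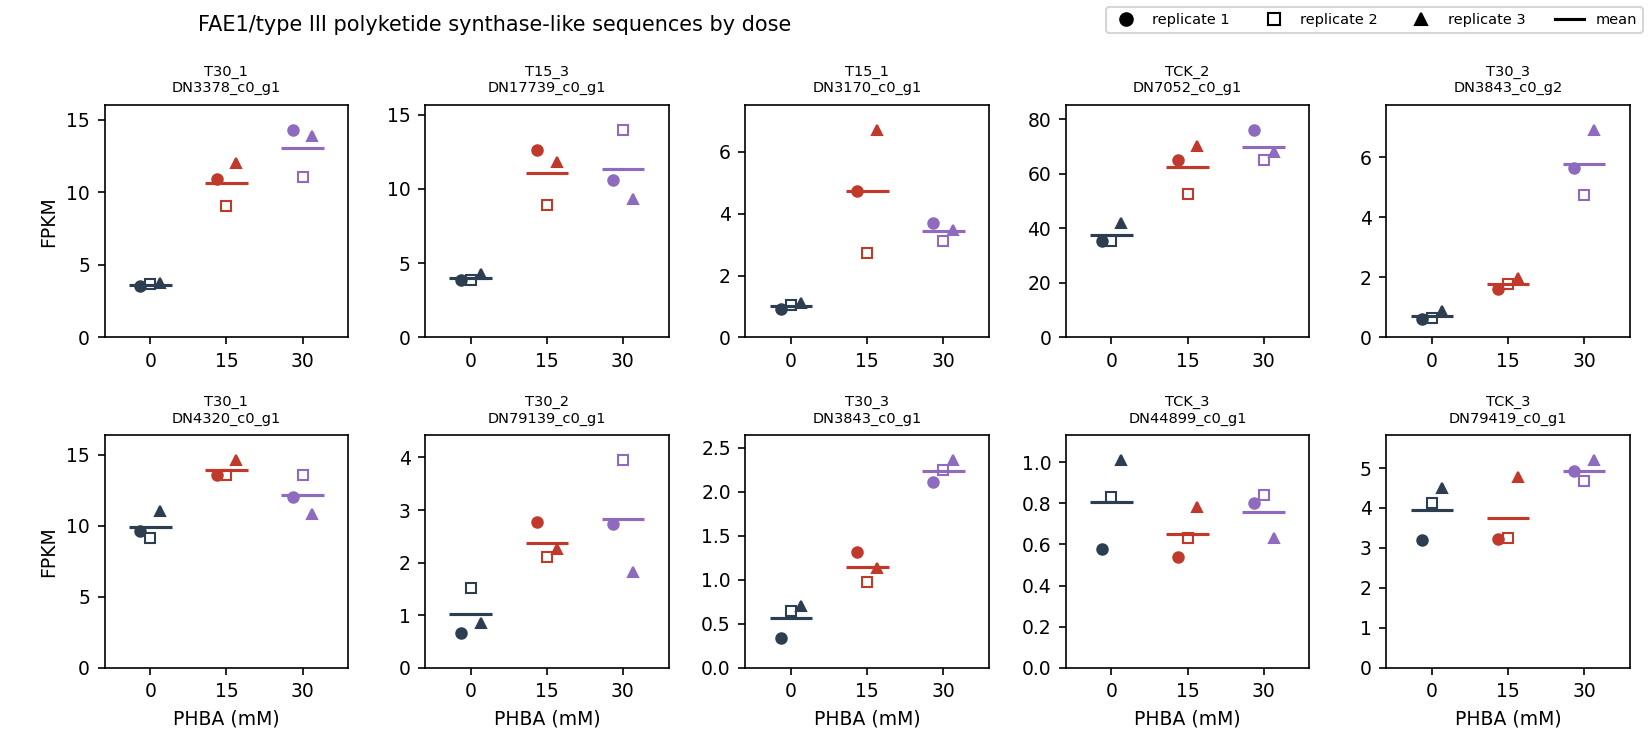
FPKM of the 10 tested sequences of the FAE1 and type III polyketide synthase-like family at 0, 15 and 30 mM PHBA, 1 panel for each, with 1 marker for each library and a line at the mean of 3. In the upper row and the first 3 panels of the lower row every 15 mM marker lies above every untreated one; in the last 2 panels the groups overlap.

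Sequences of the cell wall and cell surface made up 3 of the annotated calls. The expansin-type sequence T30_3_TRINITY_DN3393_c1_g1 carries the domain annotated as pollen allergen, which in plants is the C-terminal domain of expansins, proteins that loosen the wall during growth. It had 16.9, 12.6 and 21.6 FPKM at 15 mM, against 4.16, 2.94 and 5.24 FPKM untreated (1.81 ± 0.22; adjusted p = 0.0286). The sequence annotated as phosphate-induced protein 1 T15_3_TRINITY_DN70558_c0_g1, of the EXORDIUM family whose Arabidopsis members are extracellular proteins of brassinosteroid-dependent growth, had 9.92, 8.21 and 12 FPKM at 15 mM, against 2.03, 1.36 and 2.91 FPKM untreated (1.85 ± 0.24; adjusted p = 0.0389). The haem peroxidase T15_1_TRINITY_DN85049_c0_g1, of a family that in plants includes the secreted enzymes that cross-link wall phenolics, had 5.47, 4.48 and 6.1 FPKM at 15 mM, against 2.08, 2.12 and 1.5 FPKM untreated (1.13 ± 0.15; adjusted p = 0.0383). None of the 3 had overlapping groups. All 3 calls were lost without untreated replicate 1, 2 or 3 (adjusted p = 0.0697 to 0.179), 15 mM replicate 1 or 3 (0.111 to 0.208), or 30 mM replicate 1 or 3 (0.0626 to 0.0744), and the expansin and peroxidase calls without 30 mM replicate 2 (0.0526 and 0.0668).

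The wider list of wall enzymes had values in both directions. Of 62 sequences for wall loosening and pectin modification, 1 was called, 14 were higher (22.6%) and 9 lower (14.5%) at an unadjusted p under 0.05, against 14.2% and 0.931% of annotated sequences, and the median was 0.14 (-0.01 after quantile normalization). Their folds ranged from -1.26 to 2.26. The upper end was a xyloglucan endotransglycosylase, an enzyme that cuts and rejoins wall xyloglucan: T30_2_TRINITY_DN11898_c0_g1 had 20.8, 11.6 and 27.6 FPKM at 15 mM and 2.35, 4.47 and 2.88 FPKM untreated (2.26 ± 0.34; adjusted p = 0.0657, and 0.0302 without 15 mM replicate 2, its lowest 15 mM library). Another expansin-type sequence, TCK_3_TRINITY_DN74336_c0_g1, had 13.8, 13.9 and 12.3 FPKM at 15 mM and 6.1, 4.05 and 7.56 FPKM untreated (1.08 ± 0.20; adjusted p = 0.11). In both, every 15 mM library was above every untreated one.

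Of 28 haem peroxidases, 1 was called, against 0.132% of annotated sequences called higher. At an unadjusted p under 0.05, 6 were higher (21.4%, against 14.2% of annotated sequences) and 0 lower. The median was 0.25 (0.14 after quantile normalization). T30_1_TRINITY_DN5643_c0_g2 had 4.33, 2.31 and 3.83 FPKM at 15 mM and 0.57, 0.87 and 0.85 FPKM untreated (1.32 ± 0.25; adjusted p = 0.113), with no overlap. T15_2_TRINITY_DN4754_c0_g1 had 44, 30.8 and 55.6 FPKM at 15 mM and 28.2, 31 and 31.3 FPKM untreated (0.48 ± 0.20; adjusted p = 0.451). In this peroxidase 15 mM replicate 2 fell inside the untreated range while the other 2 were above it.

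Sequences with receptor domains gave 3 annotated calls. T30_2_TRINITY_DN299_c0_g1 has an NB-ARC and an Rx N-terminal domain, the build of intracellular immune receptors that recognise pathogen effectors. It had 8.8, 7.46 and 8.7 FPKM at 15 mM, against 2.55, 3.46 and 3.3 FPKM untreated (1.19 ± 0.14; adjusted p = 0.0249). The leucine-rich repeat sequence T15_3_TRINITY_DN19732_c0_g1 had 4.32, 3.57 and 4.03 FPKM at 15 mM, against 1.3, 1.54 and 1.37 FPKM untreated (1.05 ± 0.13; adjusted p = 0.0286). T15_1_TRINITY_DN3842_c0_g1, with leucine-rich repeats and a protein kinase domain as in cell surface receptors, had 14.4, 12.8 and 14.6 FPKM at 15 mM, against 5.52, 6.04 and 6.84 FPKM untreated (1.07 ± 0.14; adjusted p = 0.0443). In all 3 every 15 mM library was above every untreated one. The 3 calls were lost without untreated replicate 1, 2 or 3 (adjusted p = 0.0755 to 0.206), 15 mM replicate 1 or 3 (0.111 to 0.213) or 30 mM replicate 1 (0.0519 to 0.063), and that of the receptor kinase without 30 mM replicate 3 (0.0854). After median-of-ratios rescaling, 0 of the 3 were called (adjusted p = 0.0681 to 0.11), and 2 were called after quantile normalization or when the 4 most abundant sequences were taken out.

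Within the receptor families few members were called, while the share of higher values was above that of annotated sequences. Of 80 NB-ARC sequences 22 were higher and 1 lower at an unadjusted p under 0.05 (median 0.27, and 0.11 after quantile normalization), and of 215 leucine-rich repeat sequences 67 were higher and 1 lower (median 0.25, and 0.08). Of 614 protein kinases 188 were higher and 4 lower (median 0.24, and 0.08). The shares of higher values in these lists were 27.5, 31.2 and 30.6% in that order, against 14.2% of annotated sequences. The NB-ARC sequence T15_3_TRINITY_DN1731_c0_g1 had 6.74, 5.06 and 6.88 FPKM at 15 mM and 2.39, 2.91 and 3.23 FPKM untreated (adjusted p = 0.0734, and 0.0366 without 15 mM replicate 2, its lowest 15 mM library). T15_2_TRINITY_DN5530_c0_g1, a leucine-rich repeat sequence, had 4.72, 3.65 and 4.6 FPKM at 15 mM and 1.24, 1.76 and 1.82 FPKM untreated (adjusted p = 0.0657, and 0.0425 without that library, again its lowest at 15 mM). In both, every 15 mM library was above every untreated one. A calcium-dependent type of kinase, TCK_2_TRINITY_DN201_c0_g2 with EF-hand domains that bind calcium, had 18.5, 15.1 and 17.1 FPKM at 15 mM and 8.61, 8.15 and 10.7 FPKM untreated (0.82 ± 0.14; adjusted p = 0.0953).

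The remaining values chosen in these families were of the same kind. T30_1_TRINITY_DN8356_c1_g1 (NB-ARC) had 5.65, 5.07 and 4.75 FPKM at 15 mM and 3.11, 3.11 and 3.33 FPKM untreated (adjusted p = 0.147). TCK_3_TRINITY_DN41368_c0_g1 (leucine-rich repeats) had 15.6, 13.8 and 16.8 FPKM at 15 mM and 6.67, 6.07 and 8.88 FPKM untreated (adjusted p = 0.067). T30_1_TRINITY_DN239_c0_g3, a leucine-rich repeat kinase, had 5.97, 4.71 and 5.62 FPKM at 15 mM and 2.43, 2.7 and 2.91 FPKM untreated (adjusted p = 0.0738, and 0.045 without 15 mM replicate 2, its lowest 15 mM library). In all 3 the groups did not overlap.

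Lectin and S-locus receptor kinases, surface proteins with sugar-binding outer domains, had 0 of 57 called. At an unadjusted p under 0.05, 24 were higher (42.1%, against 14.2% of annotated sequences) and 0 lower. The median was 0.33 (0.17 after quantile normalization). T15_1_TRINITY_DN12040_c0_g1 had 14.1, 15.4 and 12.5 FPKM at 15 mM and 6.19, 8.59 and 8.68 FPKM untreated (0.78 ± 0.16; adjusted p = 0.155), and here 15 mM replicate 2 was the highest library. T30_1_TRINITY_DN23716_c0_g1 had 6.16, 4.95 and 6.43 FPKM at 15 mM and 3.63, 3.72 and 3.87 FPKM untreated (0.52 ± 0.12; adjusted p = 0.193).

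Enzymes, a transporter and a sequence of unknown function made up the other 6 annotated calls. The isopenicillin N synthase-like sequence TCK_2_TRINITY_DN946_c0_g1, of the plant dioxygenases that use iron and 2-oxoglutarate to modify hormones and secondary metabolites, had 26.2, 18.3 and 27.8 FPKM at 15 mM, against 5.21, 7.34 and 6.41 FPKM untreated (1.77 ± 0.18; adjusted p = 0.0249). The alpha/beta hydrolase T15_1_TRINITY_DN58557_c1_g1, of the fold that includes plant carboxylesterases and hormone receptors, had 22, 12.6 and 22.2 FPKM at 15 mM, against 3.81, 4.21 and 4.62 FPKM untreated (1.89 ± 0.22; adjusted p = 0.0249), the largest fold of the 18. In both, 15 mM replicates 1 and 3 lay close together and replicate 2 well below them.

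TCK_3_TRINITY_DN11765_c0_g1, of the NAD-dependent epimerase and dehydratase family that includes sugar nucleotide and phenylpropanoid reductases, had 9.35, 6.85 and 7.25 FPKM at 15 mM, against 2.74, 2.17 and 2.21 FPKM untreated (1.38 ± 0.17; adjusted p = 0.0286). The sequence annotated as an enoyl reductase T30_3_TRINITY_DN8536_c0_g1, of the short-chain dehydrogenase type, had 13.6, 10.7 and 12.7 FPKM at 15 mM, against 5.16, 4.7 and 6.42 FPKM untreated (1.06 ± 0.14; adjusted p = 0.0389). A sister sequence from the same assembly component, T30_3_TRINITY_DN8536_c0_g3, had 2.56, 1.55 and 3.83 FPKM at 15 mM and 0.87, 1.22 and 1.5 FPKM untreated (adjusted p = 0.438), so reads may have been shared between them. Both sequences of the component were higher in every 15 mM library than in every untreated one.

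The UAA transporter T15_2_TRINITY_DN9986_c0_g1, of a family that carries nucleotide sugars into the endomembrane system, had 2.31, 1.74 and 2.01 FPKM at 15 mM, against 0.46, 0.36 and 0.61 FPKM untreated (1.03 ± 0.14; adjusted p = 0.0488). TCK_3_TRINITY_DN763_c0_g3, with the uncharacterised domains DUF4220 and DUF594, had 13.6, 11.4 and 13.4 FPKM at 15 mM, against 4.3, 5.64 and 5.2 FPKM untreated (1.19 ± 0.14; adjusted p = 0.0249). The groups did not overlap in either. The calls of this group of 6 were lost without untreated replicate 1, 2 or 3 (adjusted p = 0.0697 to 0.209), as they were without 15 mM replicate 1 or 3 (0.101 to 0.223). Without 30 mM replicate 1, 2 or 3, 5, 2 and 3 of them were lost (0.0509 to 0.0797), among them each time the enoyl reductase and the UAA transporter. After quantile normalization the epimerase, the enoyl reductase and the UAA transporter were not called (adjusted p up to 0.0843). Median-of-ratios rescaling ended the same 3 calls and that of the DUF4220 sequence (up to 0.086), and the transporter call was also lost when the 4 most abundant sequences were taken out (0.0541).

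The wider families of conjugating, oxidising and exporting enzymes had 0 called members apart from that 1 dioxygenase. Of 67 2-oxoglutarate dioxygenases 10 were higher and 0 lower at an unadjusted p under 0.05 (median 0.15, and -0.01 after quantile normalization), close to all annotated sequences. T30_3_TRINITY_DN1745_c0_g1 had 83.6, 62.9 and 90.7 FPKM at 15 mM and 44.2, 47 and 53.7 FPKM untreated (adjusted p = 0.344), and T15_3_TRINITY_DN4619_c0_g1 had 16.4, 12 and 19.4 FPKM at 15 mM and 9.14, 9.8 and 10.4 FPKM untreated (adjusted p = 0.362). Glutathione S-transferases, which couple foreign compounds to glutathione, had 12 of 43 higher and 0 lower (median 0.32, and 0.12 after quantile normalization). UDP-glycosyltransferases, which attach sugars to phenolics and hormones, had 22 of 77 higher and 7 lower (median 0.11, and -0.03), and cytochrome P450 enzymes 18 of 114 higher and 4 lower (median 0.12, and -0.06). ABC transporters had 21 of 75 higher and 1 lower (median 0.24, and 0.05), and MATE transporters 4 of 36 higher and 0 lower (median 0.03, and -0.11). Of annotated sequences, 14.2% were higher and 0.931% lower, and of all tested sequences at a mean of 5 to 20 FPKM 24.6% were higher. The higher shares were 27.9% (glutathione S-transferases), 28.6% (UDP-glycosyltransferases), 15.8% (P450), 28% (ABC) and 11.1% (MATE). The lower shares were 9.09% of UDP-glycosyltransferases, 3.51% of P450 enzymes and 1.33% of ABC transporters.

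Summed FPKM of the glutathione S-transferases was 353, 243 and 394 at 15 mM, against 215, 235 and 240 untreated, and that of the UDP-glycosyltransferases 850, 536 and 994 at 15 mM, against 545, 596 and 624 untreated. In the first list every 15 mM library was above every untreated one, by a narrow margin in replicate 2, and in the second replicate 2 was below all of them. Aldo/keto reductases, which reduce reactive carbonyls, had a median of 0.34 (0.14 after quantile normalization). At an unadjusted p under 0.05, 2 of 16 were higher (12.5%, against 14.2% of annotated sequences) and 0 lower. T15_1_TRINITY_DN17745_c0_g1 had 5.69, 5.34 and 6.07 FPKM at 15 mM and 4.01, 4.34 and 4.05 FPKM untreated (adjusted p = 0.431), and T30_2_TRINITY_DN14992_c0_g1 had 6.94, 7.1 and 7.84 FPKM at 15 mM and 6, 6.16 and 5.63 FPKM untreated (adjusted p = 0.498).

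Dehydrins and late embryogenesis abundant proteins, which protect cells during drying, had 10 of 23 higher and 1 lower at an unadjusted p under 0.05 and 0 called (median 0.34, and 0.13 after quantile normalization). These shares were 43.5% and 4.35%, against 14.2% and 0.931% of annotated sequences. T15_3_TRINITY_DN21507_c0_g1 had 9.72, 9.5 and 11.9 FPKM at 15 mM and 3.34, 2.98 and 5.38 FPKM untreated (1.24 ± 0.21; adjusted p = 0.0893). T30_1_TRINITY_DN2231_c0_g1 had 13.3, 14.2 and 17.1 FPKM at 15 mM and 7.25, 7.88 and 9.05 FPKM untreated (0.80 ± 0.26; adjusted p = 0.348). The groups of both did not overlap. Alternative oxidases, which let mitochondrial electrons bypass part of the respiratory chain, had 4 tested sequences with folds of 0.23 to 1.31, of which 2 had groups that did not overlap, against 23.8% of annotated sequences. Folds above 0 were general, in 11260 of the 13634 annotated sequences. Summed FPKM of the alternative oxidases was 23, 15 and 30.8 at 15 mM, against 11.5, 11.4 and 14.9 untreated.

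**Figure D4:**
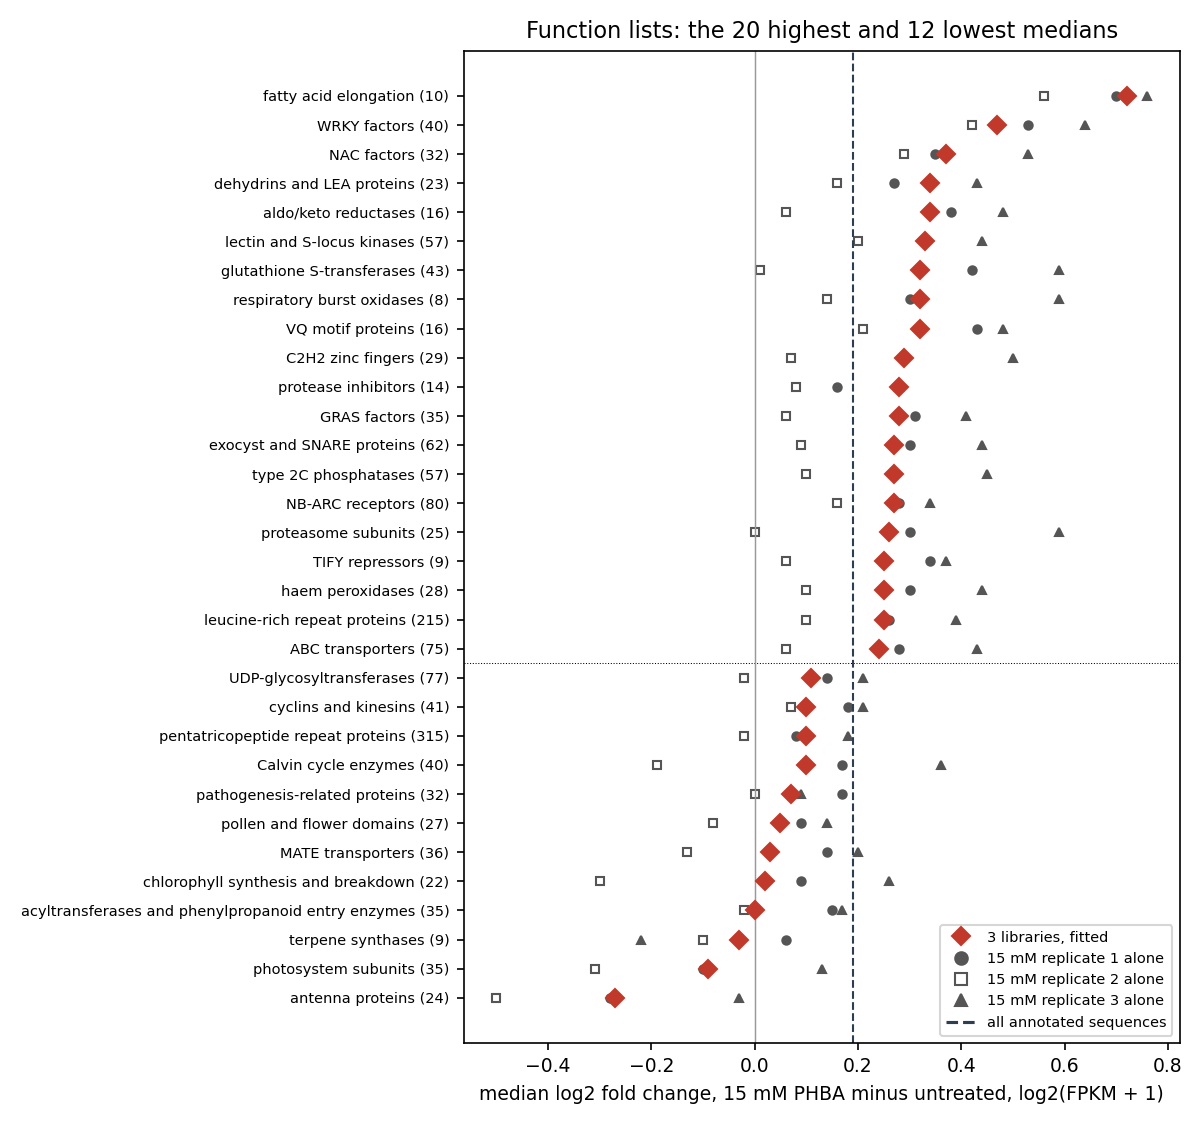
Median log2 fold change (15 mM PHBA minus untreated, log2 of FPKM + 1) of the 20 function lists with the highest and the 12 with the lowest medians among the 62 with at least 5 tested members; numbers of members stand in brackets. Red diamonds are the fitted medians, grey markers the medians of single 15 mM libraries against the untreated mean, and the dashed line is the median of all annotated sequences, 0.19; the FAE1 list (fatty acid elongation) stands at 0.72, and the open squares of replicate 2 lie left of the diamonds.

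Photosynthesis sequences lay at the low end of the lists, and none of them was called. The 24 chlorophyll a-b binding sequences, which make up the light-harvesting antenna, had a median log2 fold change of -0.27 (-0.32 after quantile normalization; with median-of-ratios rescaling, -0.56), with 20 of 24 below 0 and 1 lower at an unadjusted p under 0.05. Their summed FPKM was 4703, 4162 and 5679 at 15 mM, against 4897, 7559 and 5732 untreated. The untreated group was spread by replicate 2, which was the highest library, and without it the median was -0.11. T30_2_TRINITY_DN134_c0_g1 had 49.4, 45.1 and 54.3 FPKM at 15 mM and 56.7, 79.2 and 68.1 FPKM untreated (-0.44 ± 0.20; adjusted p = 0.492), with groups that did not overlap. TCK_2_TRINITY_DN1025_c0_g2 had 2.21, 6.17 and 1.66 FPKM at 15 mM and 9.53, 21.4 and 4.92 FPKM untreated (-1.50 ± 0.55; adjusted p = 0.407), with groups that did.

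**Figure D5:**
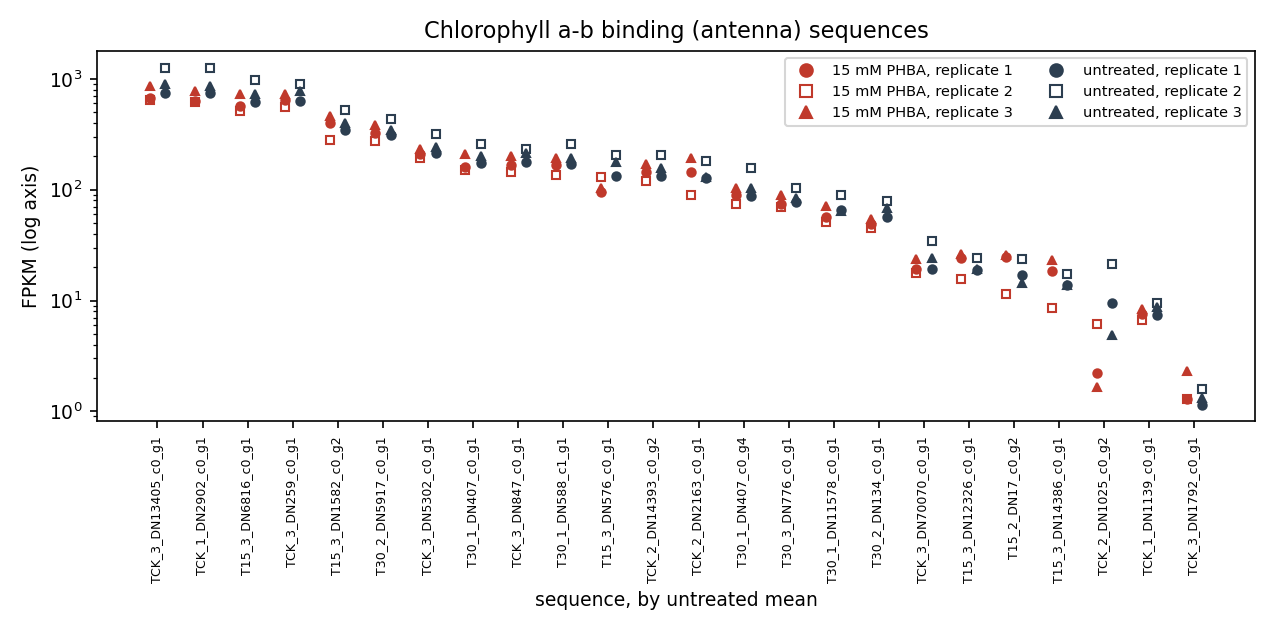
FPKM (log axis) of the 24 chlorophyll a-b binding sequences, ordered by their untreated mean, with 1 marker for each library, red for 15 mM PHBA and dark blue for untreated. The open dark blue squares, untreated replicate 2, are the highest untreated values in all 24 columns, and the red and dark blue markers overlap in 22 of the 24 columns.

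Photosystem subunits had a median of -0.09 over 35 sequences, with 27 below 0 and 0 past an unadjusted p of 0.05 in either direction. The sign of that median turned without untreated replicate 2 (0.04) and without 15 mM replicate 2 (0.01). TCK_2_TRINITY_DN42871_c0_g1, a PsbP protein of the oxygen-evolving complex, had 8.59, 8.05 and 11.7 FPKM at 15 mM and 11.6, 15.7 and 11.3 FPKM untreated (adjusted p = 0.586). TCK_1_TRINITY_DN1221_c0_g3, photosystem I subunit VI, had 37.8, 42.9 and 39.1 FPKM at 15 mM and 47.7, 72.8 and 48.1 FPKM untreated (adjusted p = 0.588). The groups overlapped in the first and did not in the second. The Calvin cycle enzymes had a median of 0.1, below that of annotated sequences (-0.06 after quantile normalization). The 9 terpene synthases had a median of -0.03, and no member reached a mean of 5 FPKM. The 35 acyltransferases and phenylpropanoid entry enzymes had a median of -0.00, whose sign turned in 11 of the alternative fits.

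In the acyltransferase list the 2 members with the smallest p went opposite ways. T15_3_TRINITY_DN1656_c1_g2 had 27.5, 25.1 and 38.2 FPKM at 15 mM and 16, 18.7 and 17.7 FPKM untreated (0.74 ± 0.18; adjusted p = 0.217). T15_2_TRINITY_DN5738_c0_g1 had 5.86, 5.51 and 8.69 FPKM at 15 mM and 9.14, 13.2 and 12.9 FPKM untreated (-0.74 ± 0.21; adjusted p = 0.281, and 0.0461 after quantile normalization).

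No annotated sequence was called lower, and the 6 with the smallest p among those of mean at least 5 FPKM are given as values. T15_2_TRINITY_DN2457_c0_g1, with the CCT motif of CONSTANS-like and clock proteins, had 5.8, 4.31 and 5.76 FPKM at 15 mM and 11.8, 10.6 and 13.3 FPKM untreated (-1.04 ± 0.14; adjusted p = 0.0511). It stood just outside the threshold, and its adjusted p was 0.0464 without 15 mM replicate 2 and 0.0128 after quantile normalization. The GATA zinc finger sequence TCK_1_TRINITY_DN10067_c0_g2, of a family that includes regulators of chloroplast development, had 11.4, 10.4 and 10.1 FPKM at 15 mM and 16.1, 15.8 and 16.6 FPKM untreated (adjusted p = 0.113, and 0.0476 after median-of-ratios rescaling). The GUN4-like sequence T15_3_TRINITY_DN27255_c0_g1, whose family promotes the magnesium step of chlorophyll synthesis, had 36.3, 49 and 33.2 FPKM at 15 mM and 66.2, 83.6 and 70.3 FPKM untreated (-0.89 ± 0.19; adjusted p = 0.156). In all 3 every 15 mM library was below every untreated one. Where a mean of at least 5 FPKM was the filter, these 3 and the tetratricopeptide repeat sequence were called lower (adjusted p = 0.00819 to 0.0365).

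The other 3 also had groups that did not overlap. The tetratricopeptide repeat sequence T30_3_TRINITY_DN7892_c1_g2 had 7.18, 5.87 and 5.06 FPKM at 15 mM and 12.7, 12.4 and 13.5 FPKM untreated (adjusted p = 0.156). The cytochrome P450 T30_1_TRINITY_DN491_c0_g3 had 6.25, 5.78 and 7.53 FPKM at 15 mM and 10.7, 9.64 and 11.3 FPKM untreated (adjusted p = 0.181, and 0.0214 after quantile normalization). A thioredoxin-like sequence, T30_1_TRINITY_DN47588_c0_g1, had 24.3, 19.1 and 18.5 FPKM at 15 mM and 28.9, 33 and 28.6 FPKM untreated (adjusted p = 0.206). Beside the CCT sequence, the annotated sequence nearest outside the threshold was the cytochrome P450 T30_1_TRINITY_DN59960_c0_g1, with 5.93, 6.14 and 5.72 FPKM at 15 mM and 2.7, 3.13 and 2.81 FPKM untreated (adjusted p = 0.0505). The 2 annotated calls nearest inside it were the WRKY sequence TCK_3_TRINITY_DN6324_c0_g1 and the UAA transporter, both at an adjusted p of 0.0488.

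Outside the annotation the called sequences were of 2 kinds. The first kind had values in both groups: 8 of the 19 higher ones were above 0 in at least 1 untreated library. T15_1_TRINITY_DN10539_c2_g1 had 25.2, 12.3 and 32.7 FPKM at 15 mM, against 2.17, 0 and 0.88 FPKM untreated (3.65 ± 0.46; adjusted p = 0.0366), the largest fold among called sequences present in both groups. This call was kept without 15 mM replicate 2 and lost without each other library (adjusted p = 0.063 to 0.179). The other 7 had 1.27 to 16.8 FPKM at 15 mM and 0.14 to 6.99 FPKM untreated, with log2 fold changes of 0.97 to 1.56. All 8 calls of this kind were lost without any 1 of the untreated replicates (adjusted p = 0.0697 to 0.209), 15 mM replicate 1 (0.16 to 0.208) or 30 mM replicate 1 (0.0519 to 0.0797). Without 15 mM replicate 3, 7 of the 8 were lost, and 5 each without 30 mM replicate 2 or 3.

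The second kind was listed at 0 in every untreated library, as 11 of the 19 were, and 10 of these were also listed at 0 in every 30 mM library. Those 10 passed the filter only through the 15 mM libraries, so a difference was a condition of their being tested and their calls are given as a description; without a filter 2 of the 11 were called. T15_3_TRINITY_DN28495_c0_g1 had 3.91, 4.84 and 4.16 FPKM at 15 mM (adjusted p = 0.001), and T30_2_TRINITY_DN74785_c0_g1 had 3.29, 4.11 and 3.55 FPKM at 15 mM (adjusted p = 0.00165), each against 0 in all 3 untreated libraries. Their 15 mM libraries were close together, and no library left out ended these calls. The filter was not redone in those fits, and without any 1 of the 15 mM libraries neither sequence would have passed it. Those fits are therefore no separate check of these calls. T15_2_TRINITY_DN89460_c0_g1 had 2.71, 6.62 and 7.11 FPKM at 15 mM and T15_2_TRINITY_DN73370_c0_g1 had 2.21, 5.48 and 2.36 FPKM. T15_1_TRINITY_DN38062_c0_g1 had 4.84, 2.5 and 2.14 FPKM at 15 mM and T15_1_TRINITY_DN33859_c0_g1 had 3.28, 2.02 and 3.47 FPKM. T15_3_TRINITY_DN53867_c0_g1 had 1.69, 2.08 and 3.58 FPKM at 15 mM. These 5 were more uneven across the 15 mM libraries, all at 0 untreated, and their calls (adjusted p = 0.024 to 0.0369) were lost without untreated replicate 1, 2 or 3 (0.0658 to 0.167) or 15 mM replicate 3 (0.0923 to 0.111), and for 4 of them without 15 mM replicate 1 (0.0928 to 0.128). Without 30 mM replicate 1, 2 or 3, 4, 2 and 3 of them were lost (0.0513 to 0.0744).

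The other 4 sequences at 0 in untreated leaves had 1.44 to 2.85 FPKM at 15 mM, and their calls were lost when any 1 of the untreated libraries, 15 mM replicates 1 and 3 and 30 mM replicate 1 was left out (adjusted p up to 0.179). Of these, T15_1_TRINITY_DN50736_c0_g1, named after its values were seen, was the exception to the 10: it had 2.64, 1.61 and 2.77 FPKM at 15 mM and 1.32, 1.87 and 1.44 FPKM at 30 mM. No fold is quoted for a sequence listed at 0 in a group, because FPKM carry no count from which a floor could be set, and the fitted difference drawn for it in the plot of all sequences depends on the pseudocount.

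All 7 sequences called lower were outside the annotation, and 6 were listed at 0 in every 15 mM library and in every 30 mM library. Those 6 passed the filter only through the untreated libraries, with the same limit, and without a filter 2 of the 7 were called. T30_3_TRINITY_DN61803_c0_g1 had 11.8, 12.7 and 8.88 FPKM in the untreated libraries and an adjusted p of 0.00013, under 0.05 with any library left out. The filter was not redone in those fits, and without any 1 of the untreated libraries this sequence would not have passed it. TCK_3_TRINITY_DN18831_c0_g2 had 3.11, 3.25 and 2.53 FPKM untreated (adjusted p = 0.00473), a call lost without untreated replicate 1 or 2 (adjusted p = 0.0618 and 0.0802). The remaining 4 were less even. TCK_1_TRINITY_DN64679_c0_g1 had 8.44, 2.97 and 4.42 FPKM untreated and TCK_1_TRINITY_DN33066_c0_g1 had 7.21, 2.53 and 5.7 FPKM. TCK_2_TRINITY_DN75260_c0_g1 had 6.43, 3.4 and 2.52 FPKM untreated and TCK_3_TRINITY_DN65592_c0_g1 had 3.04, 2.12 and 1.65 FPKM, all at an adjusted p of 0.0249. The seventh, TCK_1_TRINITY_DN66100_c0_g1, had 1.08, 0 and 0 FPKM at 15 mM, against 6.3, 3.95 and 4.07 FPKM untreated (adjusted p = 0.0488). Of these last 5, 4, 3 and 4 lost the call without untreated replicate 1, 2 or 3, 4 and 5 when 15 mM replicate 1 or 3 was left out, and all 5 when 30 mM replicate 1 was (adjusted p = 0.0519 to 0.205), and the seventh also without 15 mM replicate 2 (0.0643) or 30 mM replicate 2 (0.0782) or 3 (0.0964).

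Sequences found in 1 group alone came mostly from that group's own assemblies. In all, 31 sequences had at least 0.5 FPKM in every 15 mM library and 0 in the other 6 libraries, and 30 of the 31 came from assemblies of 15 mM libraries. The same pattern held for 24 sequences in untreated leaves, 22 of them from untreated assemblies, and for 64 at 30 mM, all 64 from 30 mM assemblies. None of the 31 and none of the 24 was annotated. T30_2_TRINITY_DN74785_c0_g1, called higher, and T30_3_TRINITY_DN61803_c0_g1, called lower, came from 30 mM assemblies by their prefix. Both were nonetheless listed at 0 in every 30 mM library, so a listed 0 need not mean that a sequence was absent. Of the 37 sequences called higher, 21 came from 15 mM assemblies, which gave 35.3% of the tested sequences, and 6 of the 7 called lower came from untreated assemblies, which gave 28.3%. The part of the assembly in these calls was not tested.

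The 30 mM libraries were set beside these values without a test, because both comparisons use the same untreated libraries. Of the 18 annotated sequences that rose at 15 mM, 12 had every 30 mM library above every 15 mM library, a pattern shown by 21.3% of annotated sequences and 12.6% of all tested ones. The WRKY sequence TCK_3_TRINITY_DN6324_c0_g1 had 23.8, 18.7 and 19.4 FPKM at 30 mM, and the isopenicillin N synthase-like sequence TCK_2_TRINITY_DN946_c0_g1 had 111, 88 and 92.8 FPKM. In the other 6 the 30 mM and 15 mM libraries overlapped: both FAE1 sequences, the expansin-type and the EXORDIUM-like sequence, the receptor kinase and the epimerase. T30_1_TRINITY_DN3378_c0_g1 of the FAE1 family had 14.3, 11.1 and 13.9 FPKM at 30 mM, and the expansin-type sequence T30_3_TRINITY_DN3393_c1_g1 had 18.8, 20.5 and 17.4 FPKM.

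Whole lists differed in the same way. Summed FPKM of the FAE1 family was 117, 95.5 and 126 at 15 mM and 133, 123 and 123 at 30 mM, and that of the WRKY family 183, 147 and 194 at 15 mM and 549, 463 and 623 at 30 mM. The antenna sequences summed to 4703, 4162 and 5679 FPKM at 15 mM and to 2158, 2906 and 1821 FPKM at 30 mM. Of the 2 NAC sequences named above, TCK_2_TRINITY_DN9048_c0_g1 had 83.3, 62.8 and 97.8 FPKM at 30 mM, above all its 15 mM values, while TCK_1_TRINITY_DN6147_c0_g1 had 5.12, 8.41 and 5.31 FPKM, below all of them. The CCT sequence T15_2_TRINITY_DN2457_c0_g1 had 2.43, 2.99 and 2.82 FPKM at 30 mM and the GUN4-like sequence T15_3_TRINITY_DN27255_c0_g1 10.2, 14.8 and 13.8 FPKM, both below their 15 mM values.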

How the data were processed

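Messenger RNA of tomato leaves was sequenced in 9 libraries, 3 for each PHBA dose, after Trizol extraction and DNase I treatment, as the labels' protocols say. FPKM values deposited by the authors, with 2 decimals, were used for sequences assembled de novo, together with the deposited annotation table of Pfam and KEGG text. Trimmomatic 0.36, FastQC 0.11.5, RSEM and DESeq are named, with no role, per the submitters' processing notes; the sources used here do not give the counting settings. FPKM carry no read counts, so total depth is unknown, and count models were not used. Relative depth was the inverse of the most frequent FPKM ratio to untreated replicate 1. That ratio was taken over sequences above 0 in at most 4 libraries, with at least 0.3 FPKM in both libraries compared.

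Values were analysed as log2(FPKM + 1), which understates the fold of low sequences, with limma 3.58.1 in R 4.3.3: 3 dose groups, 9 libraries, 6 residual degrees of freedom, a mean-variance trend and Benjamini-Hochberg adjustment over all tested sequences. The script was tested on simulated data. Function lists are words searched in the annotation. The libraries and lists were chosen with earlier results of these data known. Named are every annotated call, all lower and the 8 highest-fold higher calls outside the annotation, and, as values, the 2 members of at least 5 FPKM with the smallest p in each list that had a call or a median among the 6 highest or 4 lowest, the 6 lower annotated sequences of at least 5 FPKM with the smallest p, and the 2 annotated sequences on each side of the threshold; others were named after their values were seen. Alternatives changed the pseudocount, filter, scaling, libraries, weights and replicate block. No sequences are printed because none was matched by name.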

Additional observations from a re-analysis of the deposited data

How the results depend on the processing

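None of the named called sequences changed direction in any alternative, but the number of calls moved with nearly every choice. Total, higher and lower calls numbered 44, 37 and 7, of which 18 were annotated. With a pseudocount of 0.1 they were 102, 92 and 10 (63 annotated), and with 5 they were 5, 3 and 2 (0 annotated). Without a filter they were 4, 2 and 2 (0 annotated), and with a mean of at least 5 FPKM 213, 208 and 5 (162 annotated), where fewer sequences were tested. Quantile normalization gave 76, 54 and 22 (36 annotated), median-of-ratios rescaling 71, 49 and 22 (30 annotated), and leaving out the 4 most abundant sequences 76, 62 and 14 (40 annotated). Array weights, which gave 15 mM replicates 1, 2 and 3 weights of 2.99, 0.542 and 0.654, gave 793, 714 and 79 (431 annotated), and the 6 libraries alone 14, 9 and 5 (0 annotated). Leaving out 1 library gave 5 to 135 in total, 2 to 127 higher, 2 to 8 lower and 0 to 78 annotated. Of the 44 calls, 43 were kept without 15 mM replicate 2, 4 with the 6 libraries alone, 36 after quantile normalization and 4 to 6 without an untreated replicate. The cause of these moves was not tested.

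Deviations of same-numbered 15 mM and untreated libraries correlated at -0.0035, -0.012 and 0.018, and those of differently numbered ones at -0.023 to 0.025. No deviation shared by replicate number was seen, which cannot show whether the libraries were handled in pairs. With the replicate block 4 sequences were called, 3 higher and 1 lower, 1 of them annotated.

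The precision rests on 3 libraries a group, and changes of low sequences are understated. FPKM hold no counts, so no interval for counting error can be given, and a value of 0 sets no limit on a transcript.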

Other observations

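Several regulator and signalling lists that held no called sequence had medians above that of annotated sequences (0.19, and 0.02 after quantile normalization). VQ motif proteins, small partners of WRKY factors, had a median of 0.32 (0.20 after quantile normalization), with 6 of 16 higher and 0 lower at an unadjusted p under 0.05, and summed FPKM of 97, 71 and 101 at 15 mM, against 48.7, 51.4 and 58 untreated. C2H2 zinc fingers had a median of 0.29 (0.14 after quantile normalization) with 7 of 29 higher and 0 lower, and summed to 115, 79.9 and 134 FPKM at 15 mM, against 62.3, 67.5 and 78.2 FPKM untreated. TIFY repressors of jasmonate signalling summed to 32.9, 32.5 and 34.5 FPKM at 15 mM, against 23.7, 22.9 and 23.1 FPKM untreated, with 1 of 9 higher and 0 lower. In all 3 lists every 15 mM sum was above every untreated one. This was not particular to them: it also held for AP2/ERF and MYB-type factors, whose medians were 0.2 and 0.17. The shares of higher values were 37.5% (VQ), 24.1% (C2H2) and 11.1% (TIFY), against 14.2% of annotated sequences.

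Housekeeping lists had smaller shares of higher values than annotated sequences, of which 14.2% were higher at an unadjusted p under 0.05. Ribosomal proteins had a median of 0.20 (-0.01 after quantile normalization), with 9 of 199 higher (4.52%) and 0 lower. Pentatricopeptide repeat proteins, which process organelle RNA, had a median of 0.10 (-0.05), below the 0.19 of annotated sequences. Of these, 10 of 315 were higher (3.17%) and 5 lower (1.59%, against 0.931%). Proteasome subunits had a median of 0.26 (0.05), with all 25 above 0, 1 higher (4%) and 0 lower at an unadjusted p under 0.05.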
